A study of Mus musculus with 614 samples.

Results

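The histone genes of the Hist clusters were followed through single mouse haematopoietic cells. The genes were all rows of the deposited expression table whose symbol begins with Hist1h to Hist4h and that had 1 TPM or more (a level scaled to transcript length and to the library's sum) in no less than 5% of the cells of any sort gate. Of 70 such symbols among 43280 in the table, 65 met the rule: 5 linker histone H1 genes, 19 H2a, 19 H2b, 12 H3 and 10 H4 genes, with 52 in the Hist1 cluster, 9 in Hist2, 3 in Hist3 and 1 in Hist4. The 5 that did not were Hist1h1t, listed at 0 in every cell, Hist2h2ab, Hist1h4j, Hist1h4f and Hist1h4a, whose highest share of cells in any gate was 4.41%. Just inside the limit were Hist1h2aa at 5.17% of cells, Hist2h3c1 at 6.06% and Hist1h2ba at 6.25%. The rule left a core of 49 genes that passed in 6 or more gates, 6 that passed in all 12, and 2 that passed in 1 gate only.

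The 614 cells were untreated primary cells from C57BL/6J mice, labelled adult 7-10 weeks, sorted by flow cytometry and turned into cDNA on microfluidic C1 chips with oligo(dT) primers. From bone marrow came 65 LMPP (lymphoid-primed multipotent progenitors, Lin- cells with c-Kit, CD34 and Sca-1 and intermediate CD16/32, without CD127), 51 GMP (granulocyte-monocyte progenitors, Lin- cells with c-Kit, CD34 and high CD16/32, without Sca-1), 48 CLP (common lymphoid progenitors, with low c-Kit and Sca-1, CD127, CD34 and Flt3, without Thy-1) and 30 pre-pro-B cells (Flt3+B220+CD43+CD93+CXCR4+IL7R+, with low CD117 and CD24). The other marrow gates held 58 CDP (common dendritic progenitors, Flt3+ with intermediate c-Kit, without CD115 or IL7R), 66 cMoP (common monocyte progenitors, CD115+Ly6ChiFlt3-c-Kit+), 27 plasmacytoid dendritic cells (pDC, Lin-B220+SiglecH+) and the dendritic precursors called pre-DC. Those pre-DC were CD11c+ and Flt3+ without MHCII, CD172α or B220 and fell into 45 with both SiglecH and Ly6C (SiglecH+Ly6C+), 68 with Ly6C alone (SiglecH-Ly6C+), 70 with neither (SiglecH-Ly6C-) and 70 with SiglecH alone (SiglecH+Ly6C-), and 16 pre-DC without that split came from blood.

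No label names an animal, so each gate counts as 1 sample: SDs below are over cells, and no p-value can be given. The library numbers were divided into 9 runs, here lettered A to I; the labels do not say what a run is. Most runs are stretches set apart by a gap in the numbers or another prefix, but D, E and F adjoin and were divided every 96 numbers, where the mix of gates also changes. Run B, which spans 129 numbers, was not divided. Run B held all 129 GMP, CLP and pre-pro-B cells and no others, each gate in 1 unbroken block of numbers, run C the CDP and 24 pDC, run E the SiglecH+Ly6C+ pre-DC with 51 SiglecH+Ly6C- pre-DC, and run F the SiglecH-Ly6C- pre-DC with 19 SiglecH+Ly6C- pre-DC. LMPP (A), SiglecH-Ly6C+ pre-DC (D), blood pre-DC (G), cMoP (H) and the remaining 3 pDC (I) each had a run to themselves. TPM keeps no read depth. As a stand-in, genes at 1 TPM or more per cell had gate medians between 3280 (CLP) and 6671 (cMoP). No marker of a gate's own list was at 0 in all of its cells, and the markers found in at least 50% of cells ranged from 3 of 6 in SiglecH-Ly6C+ pre-DC to 7 of 7 in LMPP, cMoP and pDC. Pre-pro-B cells went against their label in part: the mean log2(TPM + 1) over the pDC markers was 7.42 in them, against 3.94 in CLP, 3.37 in GMP and 8.43 in pDC, and Siglech was at 100 TPM or more in 100% of them. Over the 8 pre-pro-B markers it was 3.73 in pre-pro-B cells and 4.30 in CLP. Among markers of other cells, the 9 erythroid genes summed to 22262 TPM in 1 GMP and 69804 TPM in 1 blood pre-DC; of these genes, 0 were at 0 in all GMP and 5 in all blood cells. Nkg7 was the cytotoxic cell marker that stood out, at 100 TPM or more in 86.3% of GMP. Of the 9 T and natural killer cell genes on its list, 7 were at 0 in all GMP.

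Histones package DNA: H2a, H2b, H3 and H4 form the core of the nucleosome, and H1 binds the linker DNA between nucleosomes. The clustered genes are transcribed mainly in S phase, when new DNA has to be wrapped, and their mRNAs typically end in a short stem loop bound by the protein Slbp instead of a poly(A) tail. Most lack introns, many lie in divergent H2a and H2b pairs, and a few can also give longer, polyadenylated transcripts. Oligo(dT) primers start from poly(A) tails or A-rich stretches.

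The stem loop is the feature on which the family's 3′ ends turn, so it is shown here for 6 of the genes that recur below. Sequences are from GENCODE M21 transcripts on GRCm38, given 5′ to 3′ on the gene's strand, with the 16 bases of the motif GGCNCTTTTCAGNGCC in capitals. They lie at chr13:21833026-21833049 (minus strand) for Hist1h2ap, chr13:23570663-23570688 (minus) for Hist1h2ae, chr13:23571838-23571863 (plus) for Hist1h2bg, chr13:23581945-23581970 (plus) for Hist1h4d, chr13:23621777-23621802 (minus) for Hist1h1e and chr13:23761885-23761910 (minus) for Hist1h3a.
Hist1h2ap: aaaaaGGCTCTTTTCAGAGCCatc
Hist1h2ae: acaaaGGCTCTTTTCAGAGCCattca
Hist1h2bg: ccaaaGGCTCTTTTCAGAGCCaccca
Hist1h4d: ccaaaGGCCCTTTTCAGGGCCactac
Hist1h1e: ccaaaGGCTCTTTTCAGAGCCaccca
Hist1h3a: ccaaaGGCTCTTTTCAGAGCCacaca

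The motif fixes the loop, so the loop could not differ among these 6 genes. At the bases marked N in the motif, which lie in the stem, Hist1h4d differed from the others. The annotated Hist1h2ap transcript stopped 3 bases after the motif and that of Hist1h3a 37 bases after it. Transcripts of Hist1h2ae, Hist1h2bg, Hist1h4d and Hist1h1e ran on for 151, 155, 770 and 1153 bases. On the sense strand the motif was present in 38 of 141767 transcripts (0.0268%). By their longest such stretch, 16 of the 65 histone genes ended within 100 bases after the motif, 16 ran past it by more than 100 bases, and in 33 it was not found in these models. An unfound motif says only that these letters are not in the annotated transcript.

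The genes also resemble each other closely. Of all 50-base words in a gene's transcripts, a median of 49.7% also occurred in another Hist gene, 32 genes shared at least 50% of their words, and 5 (Hist1h1b, Hist1h1a, Hist2h2bb, Hist2h2be and Hist4h4) shared none. RSEM divides reads that match several transcripts, so the split among near-identical genes is uncertain. The class sums depend less on that split than single genes do.

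The summed histone level per cell was highest in the 3 gates of run B and lowest in blood pre-DC. In the order lowest, median and highest cell, it was 411, 3437 and 36651 TPM in pre-pro-B cells, 614, 2620 and 35275 TPM in GMP and 0, 2320 and 42569 TPM in CLP. Next came cMoP, at 5.8, 862.7 and 4127 TPM. Cells with 10000 TPM or more were found in these run B gates only: 14 of 30 pre-pro-B cells (46.7%, exact Clopper-Pearson 95% interval 28.3 to 65.7%), 17 of 51 GMP (33.3%, 20.8 to 47.9%) and 9 of 48 CLP (18.8%, 8.95 to 32.6%). These intervals cover counting error only.

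The remaining marrow gates had medians of 114 to 722 TPM. SiglecH+Ly6C+ pre-DC held 0, 722 and 2926 TPM, the SiglecH-Ly6C- gate 0, 415 and 8224 TPM, and CDP 18.3, 387 and 8432 TPM. SiglecH-Ly6C+ pre-DC held 0, 323 and 2467 TPM, LMPP 0, 288.3 and 6770 TPM, pDC 0, 218 and 3739 TPM, and SiglecH+Ly6C- pre-DC 0, 114 and 6368 TPM. In blood pre-DC the lowest, median and highest cell had 0, 57 and 552 TPM. Every pair of gates overlapped except GMP and blood pre-DC.

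On the log2(TPM + 1) scale the mean total per cell was 12.24 ± 2.47 in pre-pro-B cells (SD over 30 cells), 11.91 ± 1.69 in GMP (51 cells), 11.11 ± 2.61 in CLP (48 cells) and 9.46 ± 1.5 in cMoP (66 cells). It was 8.25 ± 2.06 in CDP, 8.22 ± 3.03 in the SiglecH-Ly6C- gate, 7.64 ± 3.73 in the SiglecH+Ly6C+ gate and 7.56 ± 3.45 in LMPP. The lowest means were 7.31 ± 3.22 with Ly6C alone, 7.29 ± 3.33 with SiglecH alone, 6.97 ± 3.40 in pDC and 4.96 ± 3.20 in blood pre-DC. Each step between neighbours in this order was smaller than the SD over cells of the wider gate. The narrow gates were GMP and cMoP, where no cell was without histone mRNA, and the wide ones were LMPP, pDC and the pre-DC gates, each with cells at 0. In these gates such cells stood beside cells above 1000 TPM, except in blood pre-DC, where the highest cell had 552 TPM. In SiglecH+Ly6C+ pre-DC the lower quartile was 18.7 TPM and the upper quartile 1722 TPM.

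**Figure D1:**
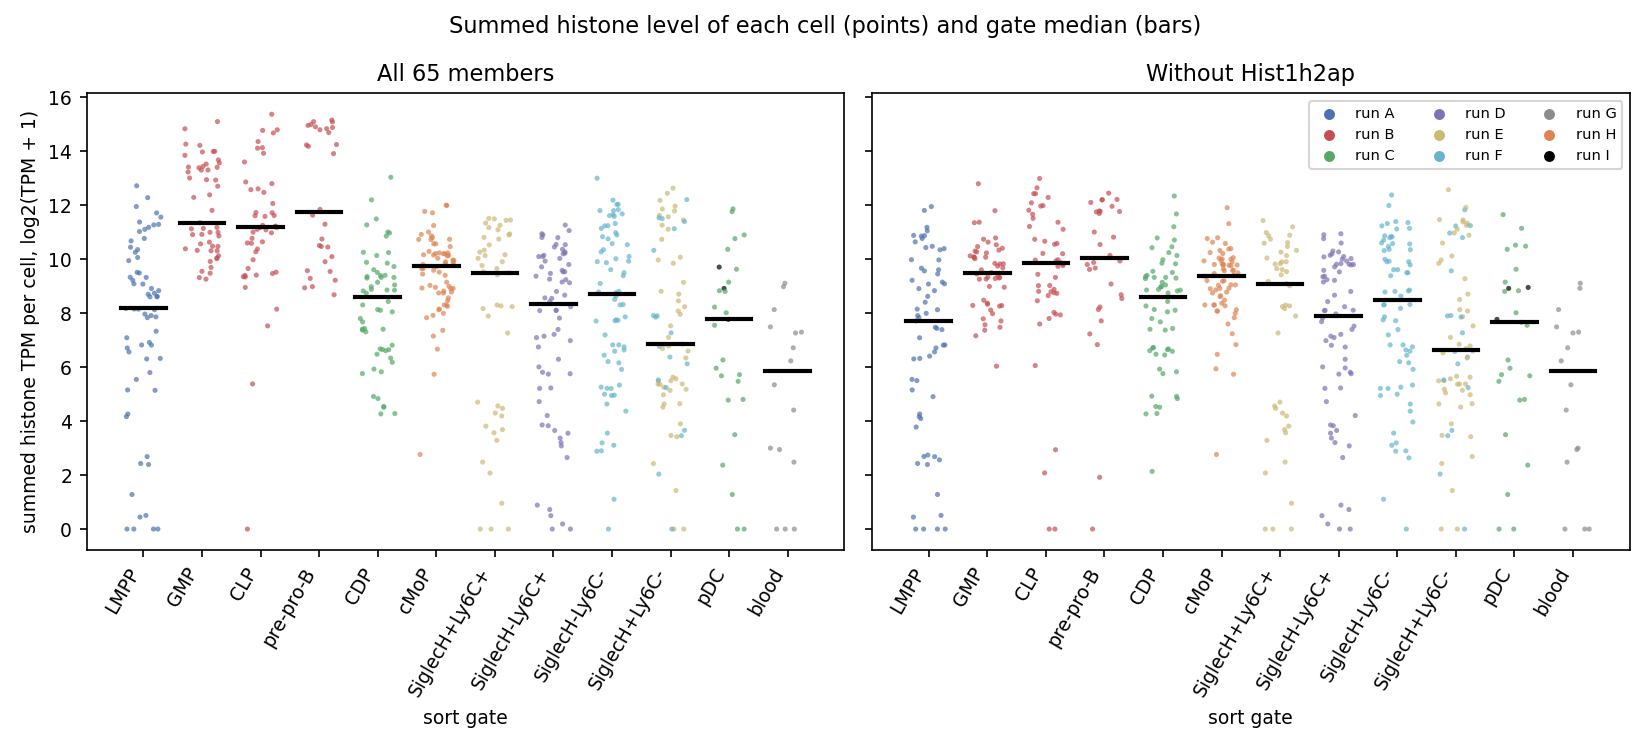
Summed histone TPM of each cell on a log2(TPM + 1) axis by sort gate, with all 65 genes (left) and without Hist1h2ap (right). Points are cells coloured by library run and bars are gate medians. With all genes the GMP, CLP and pre-pro-B medians (2620, 2320 and 3437 TPM) stand above the other gates, and without Hist1h2ap they are 724, 920.5 and 1055.2 TPM beside 666.7 TPM in cMoP.

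The number of histone genes at 1 TPM or more in a cell followed another order. Its median was 13 in cMoP, 11.5 in pre-pro-B cells, 11 in GMP, 6 in CLP and in CDP, 4 in LMPP and in the SiglecH+Ly6C+, SiglecH-Ly6C- and SiglecH+Ly6C- pre-DC, 3 in pDC and in SiglecH-Ly6C+ pre-DC, and 1.5 in blood pre-DC. Thus cMoP had the most histone genes per cell, and a lower total than the run B gates. It also had the most genes of any kind per cell (median 6671, against 3280 in CLP and 5792 in GMP). Within gates the number of histone genes correlated with the number of all genes at 0.33 (cMoP) to 0.79 (blood pre-DC). The part of this in the order was not tested.

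A single gene made up most of the total in run B. Hist1h2ap, which encodes an H2a core histone and spans chr13:21833026-21833507 on the minus strand, was present at 1 TPM or more in all 51 GMP, all 30 pre-pro-B cells and 46 of 48 CLP. Its lowest, median and highest values were 185, 2010 and 28139 TPM in GMP, 201, 2552 and 32658 TPM in pre-pro-B cells, and 0, 1277 and 36143 TPM in CLP. In cMoP they were 0, 149 and 1794 TPM. In each of the other 8 gates more than 50% of cells were without it, so that the median was 0, and the highest cell ranged from 21.4 TPM in blood pre-DC to 3222 TPM in CDP. In run B 96.9% of cells had 100 TPM or more of it, against 57.6% in run H (cMoP), 36.9% in run A (LMPP), 35.4% in run E, 33.7% in run F, 22.1% in run D, 17.1% in run C and 0% in run G (blood pre-DC). High values were thus found in a minority of cells in the runs outside B and H, with 1 of the 3 cells of run I among them.

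By run, Hist1h2ap contributed 82.1% of the summed histone TPM in run B and 1.03% (blood pre-DC) to 31.8% (LMPP) in the other gates' runs. Among 19633 genes compared, it ranked 3 by the gap between the lowest run B gate and the highest other gate, which was 4.14 on the log2 scale (mean 10.03 in CLP against 5.90 in cMoP). Of its 50-base words, 93.1% also occurred in Hist1h2ao, a neighbouring H2a gene whose mean was 6.16 TPM. Reads of such copies cannot be told apart within the shared words. Gate and run cannot be told apart for run B, since no gate of run B was also sampled in another run.

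Other members also tended to be higher in run B. All 3 run B gates were above all 9 other gates for 13 of the 65 members, where 4.98% of all genes were, and for 4 members by 1 or more on the log2 scale, where 1.08% of all genes were. The 4 were Hist1h2ap, Hist1h3i (gap 1.31), Hist1h3a (1.13) and Hist1h4n (1.09). The others with the larger gaps were Hist1h4m (0.36) and Hist1h4b (0.30). Hist1h4b met the 5% rule in 3 gates only, those of run B, and Hist1h3f in 2 only, GMP and CLP. Each is thus a member only through gates where it is high. All 3 run B gates were below the other 9 for 1 member, where 12.4% of all genes were. The gate with the highest mean TPM was a run B gate for 41 of 65 genes (22 in pre-pro-B, 13 in CLP and 6 in GMP), where it was for 20.3% of all genes. Hist1h4b and Hist1h3f are among the 41, so the membership rule itself adds to this count. In blood pre-DC 48 genes were listed at 0 in all 16 cells, where 25.8% of all genes were. By the rule of 3 cells, 0 of 16 allows a share of cells at 1 TPM or more of up to 18.8% (exact Clopper-Pearson limit 20.6%), which is no limit on cells that express the gene.

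The difference also varied with the annotated 3′ end. For the 16 genes that end within 100 bases after the stem loop, the median difference between the means of the run B gates and the other gates was 0.68 on the log2 scale, and 15 of 16 were higher in run B. For the 16 that run past it the median was 0.36, with 14 of 16 higher. For the 33 without the motif it was 0.26, with 26 of 33 higher. Those 26 include Hist1h4b and Hist1h3f, which are members only through run B gates. Over all genes the median was -0.05, and 42.4% were higher in run B. The 3 groups also differed in level, with medians of 10.4, 6.60 and 4.50 TPM over all gates, those of run B included. Outside run B the medians were 4.29, 4.48 and 2.91 TPM. A difference of log2(TPM + 1) is smaller for genes at low levels, and the part of the level in this order was not tested. Hist1h2ap was 8.10 higher, Hist1h3i, without a motif in its model, 2.42 higher, and Hist1h4d, whose transcript goes on for 770 bases, 0.19 higher. These are descriptions of genes that share sequence and cells.

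**Figure D2:**
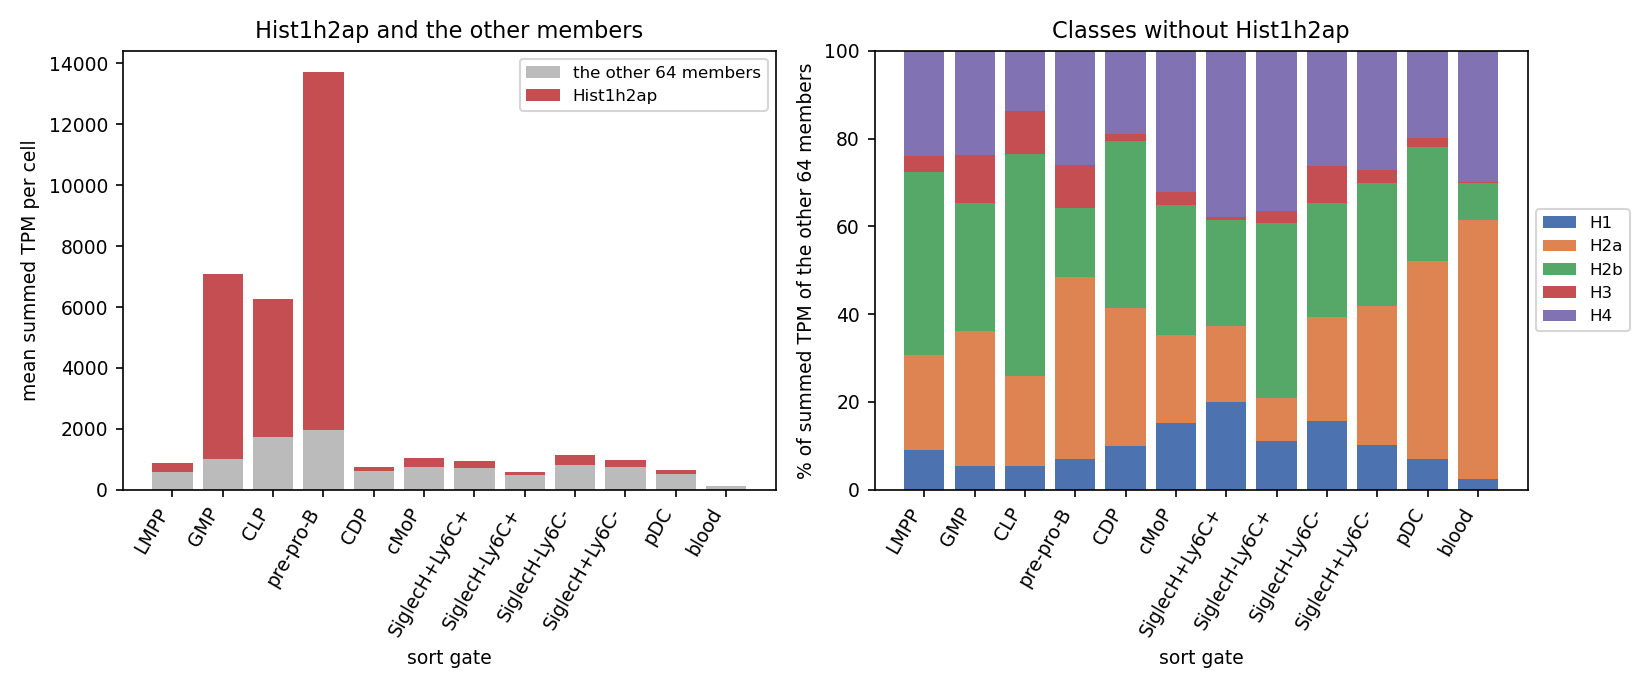
Left: mean summed histone TPM per cell by gate, with Hist1h2ap in red over the other 64 genes in grey. Right: share of each histone class in the summed TPM of the other 64 genes. Hist1h2ap averages 6068, 4541 and 11758 TPM in GMP, CLP and pre-pro-B and 1.34 to 332 TPM elsewhere.

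Without Hist1h2ap the gates were closer and the class make-up differed. The median total of the other 64 genes was 1055.2 TPM for pre-pro-B, 920.5 TPM for CLP, 724 TPM for GMP and 666.7 TPM for cMoP, then 548 TPM in SiglecH+Ly6C+ pre-DC and 57 to 387 TPM in the remaining gates. H3 genes took 10.1% of this sum in run B, and 0.222 to 7.23% in the other runs. H3 was present in 60.8% of GMP, 56.7% of pre-pro-B cells and 50% of CLP, but its widest spread was in cMoP, with 68.2% of cells at a median of 5.25 TPM. In run B the medians were 9.83 TPM in CLP, 33.6 TPM in GMP and 50.8 TPM in pre-pro-B cells, so H3 mRNA was less frequent and higher there than in cMoP, by little in CLP.

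H2b genes took 51% of the sum in CLP and 15.7% in pre-pro-B cells, the gate sampled in the same run. H2a genes took 41.8% in pre-pro-B cells, 20.5% in CLP and 9.87% in SiglecH-Ly6C+ pre-DC. H4 genes took 37.9% in the SiglecH+Ly6C+ and 35.4% in the SiglecH-Ly6C+ gate, against 13.3% in CLP. H1 genes took 20% in the SiglecH+Ly6C+ gate, 15.7% in the SiglecH-Ly6C- gate and 15.2% in cMoP, and 5.45 to 7.00% in the run B gates. The core classes form nucleosomes in equal number, yet no gate had equal shares of the 4 in these polyA-primed mRNA levels.

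Among H2a genes, Hist1h2ae and Hist2h2aa1 followed Hist1h2ap. Hist1h2ae averaged 431.7 TPM in pre-pro-B cells, where it was highest, against 158 TPM in SiglecH+Ly6C- pre-DC and 138 TPM in GMP, and was listed at 0 in all blood cells. Its lowest, median and highest values were 0, 186 and 2124 TPM in pre-pro-B cells, 0, 60.4 and 885.9 TPM in GMP, and 0, 0 and 826 TPM in CLP. The 3 gates overlapped, with Hist1h2ae in 66.7%, 72.5% and 37.5% of their cells. Hist2h2aa1, from the Hist2 cluster, departed from the run B pattern in its highest gates only. Its mean was highest in pDC (83.2 TPM) and in blood pre-DC (51.3 TPM, in 5 of 16 cells), and 17.97 to 42.6 TPM in run B. Averaged over gates it was still 0.58 higher in run B on the log2 scale, and in 36.4% of cells against 27.5%. Together with Hist1h4d (35.9 TPM) Hist2h2aa1 made up most of the mean blood total of 130.3 TPM. Of the 50-base words of Hist2h2aa1, 89.2% also occurred in Hist2h2aa2, and of those of Hist2h2aa2 100% occurred in Hist2h2aa1. The split of reads between these genes is thus uncertain. Hist2h2aa2 went the other way, with its highest mean in CLP, a run B gate. Whether the departure of Hist2h2aa1 depends on that split was not tested.

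Among H2b genes, Hist1h2bc stood out in CLP. Its lowest, median and highest values were 0, 6.74 and 7545 TPM in CLP, 0, 61.01 and 834.5 TPM in GMP, and 0, 0 and 671.6 TPM in pre-pro-B cells. It was thus in more GMP (80.4%) than CLP (60.4%), but the highest CLP cells reached far beyond any GMP, so that the CLP mean (667.7 TPM) exceeded the GMP mean (147 TPM) while the mean log2 value did not (4.61 against 4.99). In pre-pro-B cells it was in 26.7% of cells at a mean of 35.4 TPM. Hist1h2bg and Hist1h2bj averaged 36.3 and 21.6 TPM over gates. By mean TPM Hist1h2bg was highest in LMPP (82.5 TPM) and cMoP (75.7 TPM), and Hist1h2bj in pre-pro-B cells (54.1 TPM). Hist1h2bg was in a smaller share of LMPP (32.3%) than of cMoP (43.9%). Its mean log2 value was lower in LMPP (2.06) than in CDP (2.26).

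The leading H3 gene, Hist1h3i, was at low levels outside run B, though still in 12.1% of cMoP (43.1% of GMP). Hist1h3i averaged 95.5 TPM in pre-pro-B cells, with 52.6 TPM in CLP and 41.9 TPM in GMP, and 0 to 2.01 TPM in the other 9 gates, with the highest value there at 89.7 TPM in 1 SiglecH+Ly6C- pre-DC. Of its words 87.6% occurred in other Hist genes. Hist2h3b averaged 42.6 TPM in pre-pro-B cells and 0.25 to 21.9 TPM elsewhere. Hist1h3d did not follow this order, with 19.4 TPM in CLP, 17.3 TPM in SiglecH-Ly6C- pre-DC, but 13.5 TPM in GMP and 4.6 TPM in pre-pro-B cells.

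H4 was led by Hist1h4d, which was found in every gate. Its lowest, median and highest values were 0, 92.2 and 1254 TPM in cMoP, 0, 59.6 and 1597 TPM in pre-pro-B cells, 0, 25.3 and 1478 TPM in GMP, and 0, 4.37 and 1303 TPM in SiglecH+Ly6C+ pre-DC. It was in 29.2% (CLP) to 81.8% (cMoP) of cells, and its mean ran from 35.9 TPM in blood pre-DC to 241.6 TPM in SiglecH+Ly6C+ pre-DC. Only 10.2% of its words occurred in other Hist genes. Hist1h4m and Hist1h4n, by contrast, averaged 95.1 and 104 TPM in pre-pro-B cells and at most 8.77 and 5.26 TPM outside run B.

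The 3 leading H1 linker genes had their highest means outside run B. Hist1h1e averaged 80.2 TPM in SiglecH-Ly6C- pre-DC, with 59.7 TPM for pre-pro-B and 38.6 TPM for cMoP, and only 6.99 TPM in CLP. Hist1h1b averaged 57.1 TPM in SiglecH+Ly6C+ pre-DC and 49.8 TPM in pre-pro-B cells, and was in the largest share of cells in cMoP (60.6%). Hist1h1a averaged 50.5 TPM in SiglecH+Ly6C+ pre-DC, against 0.34 TPM in SiglecH-Ly6C+ pre-DC. Hist1h1b and Hist1h1a share no 50-base word with another Hist gene.

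**Figure D3:**
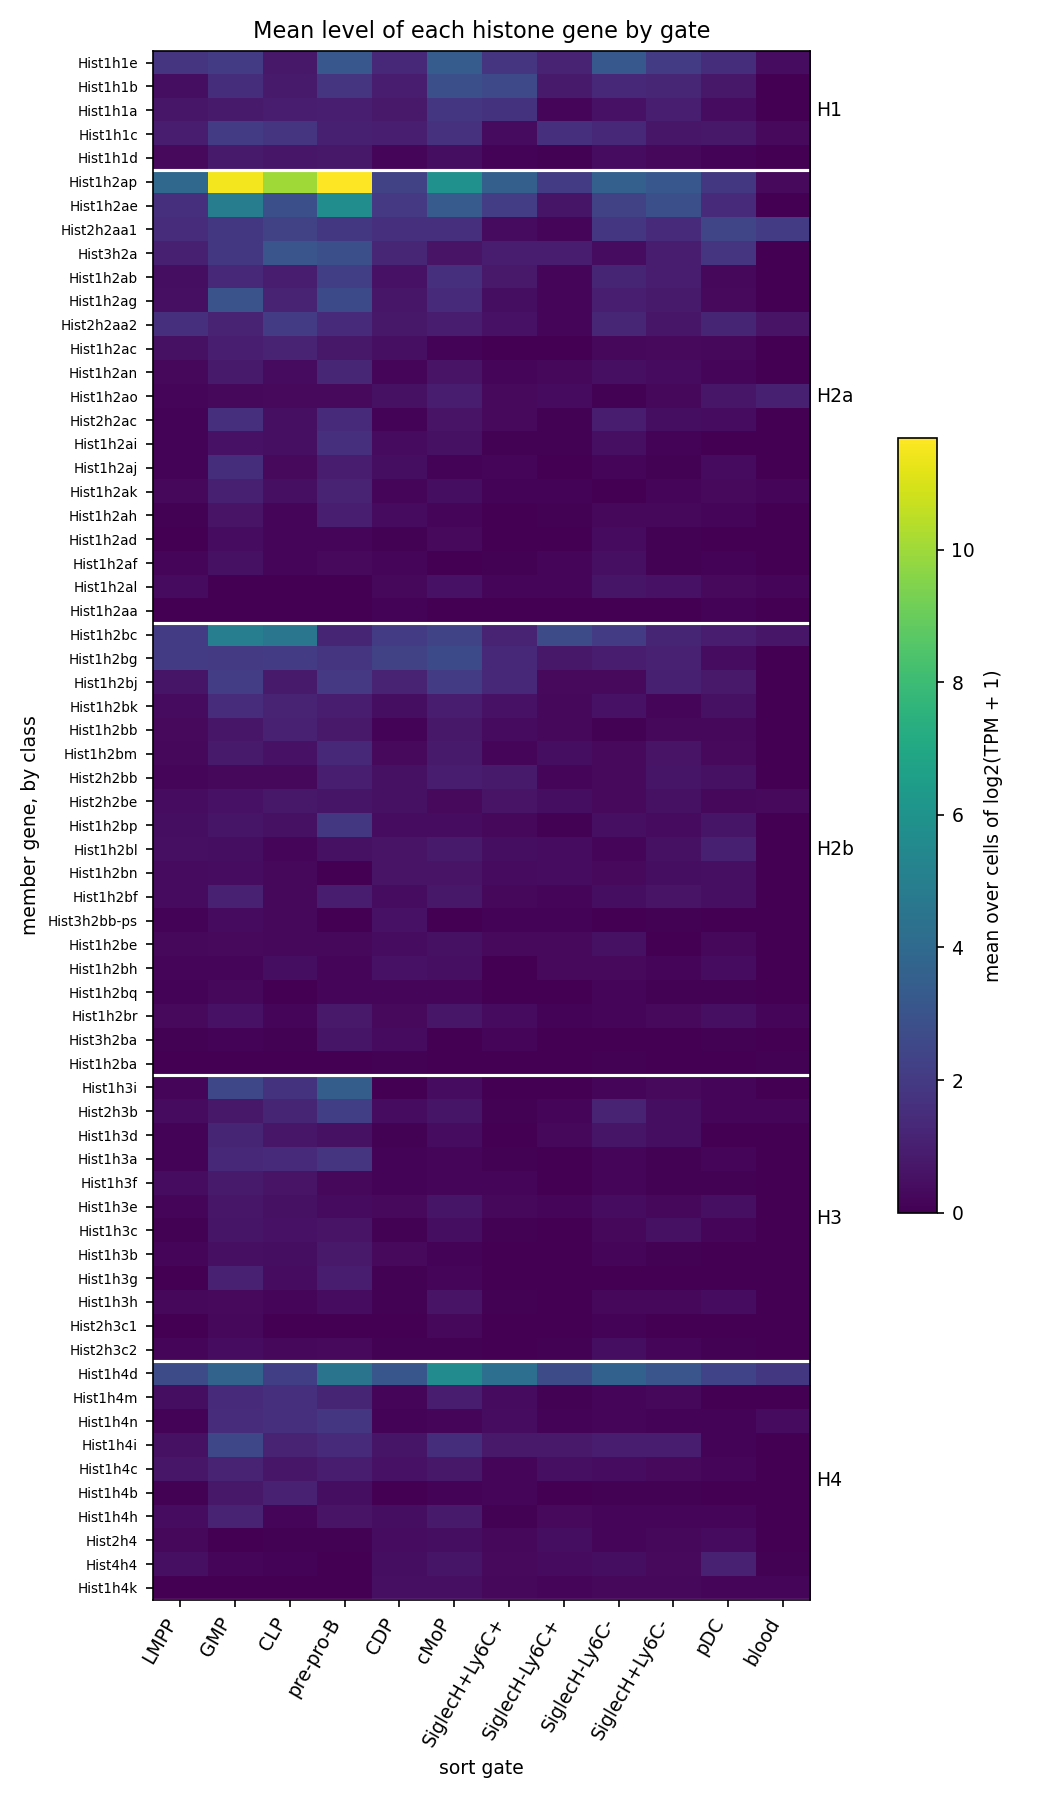
Mean over cells of log2(TPM + 1) for each of the 65 genes (rows, by class and by falling mean level) in the 12 gates (columns). Hist1h2ap is brightest in GMP, CLP and pre-pro-B (11.46, 10.03 and 11.69), Hist1h4d is brightest in cMoP (5.62), and the blood pre-DC column is nearly dark.

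Pairs of gates could be compared within run B, although the gate and its block of numbers cannot be told apart there. A difference is called here when the mean log2(TPM + 1) differs by 1 or more, which is 2-fold, and only genes at 1 TPM in at least 5% of the cells of either gate are counted. From GMP to CLP, both of which had high totals, the total was 0.80 lower (0.09 lower without Hist1h2ap). Of 57 histone genes counted, 9 were lower and 1 was higher, where 41.9% of all genes were lower and 1.90% higher, so the histone genes shared the general direction with a smaller part past the limit (median -0.23 against -0.73 over all genes, and -0.14 over all 65). CLP also had fewer genes per cell (median 3280 against 5792), whose part in these differences was not tested.

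The genes past the limit were named by a rule of size. In CLP, Hist3h2a was 1.2 higher than in GMP (mean 54.2 against 10.4 TPM), while Hist1h2ae was 2.08 lower, Hist1h2ag 1.84 lower and Hist1h4d 1.57 lower. The 9 lower genes were 5 H2a and 2 H4 genes, the H1 gene Hist1h1e (1.34 lower) and the H2b gene Hist1h2bj (1.28 lower). By class, H4 showed the largest difference, 1.73 lower in CLP, and H3 the smallest, 0.24 lower.

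From CLP to pre-pro-B cells, which had nearly the same number of genes per cell (3316 against 3280), the total was 1.13 higher, but 0.33 higher without Hist1h2ap. Of 54 genes counted, 10 were higher and 1 lower, where 9.56% of all genes were higher and 6.27% lower (median 0.28 against 0.03 over all genes). Hist1h2ae was 2.87 higher, the linker histone Hist1h1e 2.41 higher and Hist1h4d 2.32 higher. Hist1h2bc was the exception and was 3.41 lower, and the H2b class as a whole was 0.89 lower while H4 was 1.94 and H2a, without Hist1h2ap, 1.39 higher. Of each class sum the SD over cells was 3.52 or more in both gates, larger than these differences. The pDC marker level differed between these gates as well (3.94 in CLP and 7.42 in pre-pro-B cells), and their part in the histone differences was not tested.

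Pre-pro-B cells and GMP differed by 0.34 in the total, with 0.24 without Hist1h2ap. Of 58 genes counted, 4 were higher in pre-pro-B cells and 2 lower, where 3.17% of all genes were higher and 38.6% lower. Hist2h3b was 1.41 higher, Hist1h2bp 1.23 higher and Hist1h1e 1.07 higher. Against the 18 GMP within the first 96 numbers of run B alone, a choice made after seeing the data, 2 genes were higher, and Hist1h2bp (0.69) and Hist1h1e (0.47) were no longer past the limit. Hist1h2bc was 3.79 lower and the H4 gene Hist1h4i 1.15 lower. Low Hist1h2bc thus set pre-pro-B cells apart from both other gates of the run, which are not independent comparisons because the pre-pro-B cells are the same.

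In run C, the 24 pDC had a total 1.51 lower than the 58 CDP (median 131 against 387 TPM), and 1.39 lower without Hist1h2ap. Of 49 genes counted, 3 were lower and 0 higher, where 17.2% of all genes were lower and 2.71% higher. The 3 were Hist1h2bg (1.84 lower), Hist1h2bc (1.30 lower) and Hist1h4d (1.22 lower). For Hist1h4d this direction held for the mean log2 value and not for the mean: it was in 25% of pDC and 51.7% of CDP, with means of 90.6 and 72.4 TPM. H2b was the class that differed most (2.52 lower), and H3 was 0.19 higher. The mean totals were closer than the medians, 648.5 TPM in pDC and 756 TPM in CDP.

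In run E, the total of SiglecH+Ly6C- pre-DC was 0.34 lower than that of SiglecH+Ly6C+ pre-DC (median 114 against 722 TPM, mean 987.95 against 938.6 TPM). Of 46 genes counted, 2 were lower and 0 higher, where 2.53% of all genes were lower and 6.55% higher. The 2 were Hist1h4d (1.42 lower) and the linker histone Hist1h1b (1.32 lower), and the class sums were 1.28 lower for H4, 1.09 lower for H1 and 0.90 higher for H3. In run F, SiglecH+Ly6C- pre-DC were 0.94 below SiglecH-Ly6C- pre-DC, and of 56 genes counted Hist1h2bj was higher (1.23) and Hist1h1e lower (1.35), 1 in each direction, where 10.0% of all genes were higher and 2.76% lower.

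SiglecH+Ly6C- pre-DC were the only gate with many cells in more than 1 run, and the numbers of those runs, E and F, adjoin. The total in run E minus that in run F was 0.02 (median 114 TPM over 51 cells against 154 TPM over 19), and none of 54 genes counted differed by 1 or more, where 3.48% of all genes were higher in run E and 4.47% lower. By class the H1 sum differed by 0.18, H2b by 0.07, H2a by -0.06 and H3 by -0.04, and H4 was 1.60 lower in run E. The gate that spanned runs was thus alike in its total and unlike in H4, with SDs over cells of 3.80 and 3.69.

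Across runs, gate and run cannot be told apart. The pDC total was 4.14 below that of CLP and 2.47 below without Hist1h2ap, with 13 of 54 genes lower and 0 higher, where 16.6% of all genes were lower and 14.9% higher. Besides Hist1h2ap, which was 8.16 lower, Hist1h2bc was 3.71 lower and Hist1h2bg 1.67 lower. LMPP were 4.35 below GMP and 2.50 below without Hist1h2ap, with 17 of 58 genes lower and 0 higher, where 42.1% were lower and 6.42% higher. There Hist1h2ap was 7.52, Hist1h2ae 3.34 and Hist1h2bc 2.96 lower.

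The comparison of cMoP with GMP depended on Hist1h2ap. With all genes cMoP were 2.45 lower, and without Hist1h2ap 0.34 lower. Of 62 genes counted, 10 were lower and 3 higher, where 15.9% of all genes were lower and 14% higher. The 3 higher genes were Hist1h4d (1.89), Hist1h1b (1.35) and Hist1h1e (1.31), and those most lower were Hist1h2ap (5.57 lower), Hist1h2bc (2.57 lower) and Hist1h3i (2.12 lower). By class, H1 was 0.92 higher in cMoP and H4 0.46 higher, while H2a without Hist1h2ap was 1.46 lower, H3 1.28 lower and H2b 0.59 lower.

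Genes of the wider pathway were read from lists of 25 S phase genes (such as the replicative helicase subunits), 20 G2/M genes (spindle and mitotic kinase genes), 11 genes that make or process histone mRNA, 14 histone chaperones, 11 replacement histones outside the clusters and 10 genes of poly(A) addition and tail binding. From GMP to CLP, 23 of 25 S phase genes, 19 of 20 G2/M genes, 11 of 14 chaperones and 6 of 10 counted processing genes were lower by 1 or more, and 0 in each list were higher. Rrm2, a subunit of the enzyme that makes DNA building blocks, was 4.37 lower and the mitotic kinase Cdk1 4.67 lower. The chaperone Asf1b was 3.18 lower. Of the poly(A) genes 8 of 10 were lower and 0 higher, with a median of -1.53. Medians of the S phase, G2/M, chaperone and processing lists were -1.90 to -2.69, against -0.23 for the histone genes and -0.73 for all genes. The replacement histones were mixed, with 4 of 10 counted lower, 2 higher and a median of -0.38.

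From CLP to pre-pro-B cells, all 20 G2/M genes were higher (median 2.79), led by Ube2c (4.40) and Birc5 (4.15). Of the S phase genes 8 were higher and 1 lower (median 0.48), with Tk1 2.24 higher and Mcm3 2.13 lower, and of 10 counted processing genes 1, Cstf2 at 1.59, was higher. Among replacement histones Cenpa, of the centromere, was 3.86 higher and H2afx 2.85 higher. Some other pairs had the total and the G2/M list on the same side, and some did not. From GMP to pre-pro-B cells the total was 0.34 higher, while 5 G2/M genes were higher and 6 lower (median -0.12). In run F the total of SiglecH+Ly6C- pre-DC was 0.94 lower than that of SiglecH-Ly6C- pre-DC, while 2 of 20 G2/M genes were higher and 0 lower (median 0.36).

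In run E the pattern of the cycle lists was opposed: from SiglecH+Ly6C+ to SiglecH+Ly6C- pre-DC 13 of 20 G2/M genes were lower and 0 higher (median -1.12), while 10 of 25 S phase genes were higher and 0 lower (median 0.55). Ccnb1 was 2.49 lower and Mcm5 2.13 higher. The histone genes had 2 lower and 0 higher. In run C, 15 of 25 S phase genes were lower in pDC than in CDP and 0 higher, with Mcm4 3.39 lower, whereas 1 of 20 G2/M genes, Birc5 at 1.18, was higher and 0 lower. Of the processing genes 5 of 11 were lower there, among them Cpsf2 (1.97 lower).

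Replacement histones, whose mRNAs typically carry poly(A) tails and are often made outside S phase too, were also highest in run B. The mean log2(TPM + 1) over their list was 6.92 ± 0.99 in pre-pro-B cells, 6.68 ± 0.53 in GMP and 6.03 ± 0.99 in CLP, against 3.31 (blood pre-DC) to 5.10 (cMoP) in the other gates. From CLP to pDC 8 of 10 counted were lower and 0 higher (median -2.46), with H2afv 4.47 lower and H3f3a 3.93 lower. From GMP to cMoP 7 of 10 were lower and 0 higher (median -1.55), with H2afx 4.20 lower.

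Within gates, cells with more histone mRNA had more G2/M mRNA. The Spearman correlation over cells between the histone total and the mean of the G2/M list was positive in all 12 gates, from 0.21 in CDP (58 cells) to 0.71 in SiglecH-Ly6C- pre-DC (70 cells). With the S phase list it was -0.02 (CDP) to 0.47 (SiglecH+Ly6C+ pre-DC) and below the G2/M value in all gates except pDC, where it was 0.40 against 0.26. Cells of a gate share libraries and depth. The number of genes per cell correlated with the histone total at -0.09 to 0.57 and with the G2/M list at 0.34 to 0.68, and its part in these values was not tested.

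**Figure D4:**
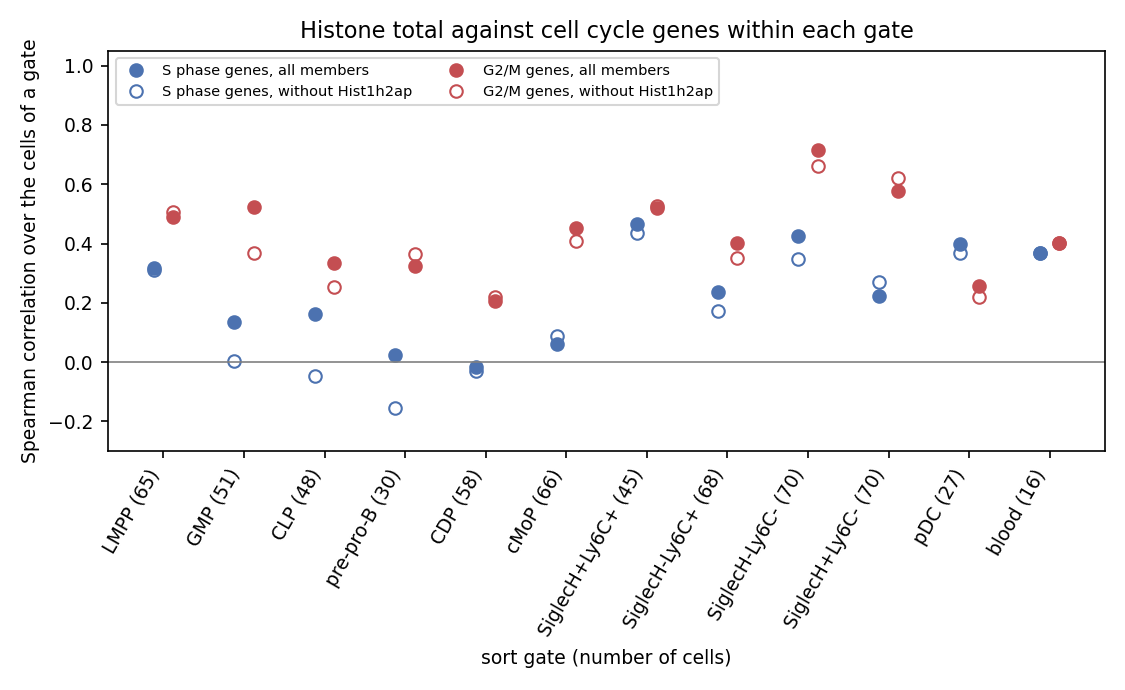
Spearman correlation over the cells of each gate between the histone total and the mean log2 level of S phase genes (blue) or G2/M genes (red); filled points use all 65 genes and open points leave out Hist1h2ap. G2/M points lie between 0.21 and 0.71 with all genes and above the S phase points in 11 of 12 gates.

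After the mean of each gate and run was subtracted, the gene outside the family whose level followed the histone total most closely over the 614 cells was Nusap1 (Pearson r = 0.48), among 6919 genes found in at least 20% of cells. Birc5 (0.45), Spc25 (0.45), Fbxo5 (0.44), Kif11 (0.44), Prc1 (0.43), Mki67 (0.43), Pbk (0.43), Spc24 (0.43) and the histone variant gene H2afx (0.43) came next. The median was 0.34 over the 20 G2/M genes, 19 of which were above the 95th percentile of all genes (0.158), and 0.12 over 24 S phase genes, 8 of which were. Without Hist1h2ap the same gene came first (0.44) and the G2/M median was 0.32.

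The start sites showed what the family shares on the DNA. RefSeq promoter windows on GRCm38.p6 were found for 57 of the 65 genes (58 windows of 250 bases before the start site). The CCAAT box (CCAAT, either strand) was in 49 of 58 windows, against 33.8% of 32851 windows in the table: in all 5 of H1, all 17 of H2a, all 17 of H2b, 8 of 10 of H3 and 2 of 9 of H4. TATAAA on the gene's strand was in 22 of 58, against 7.59%. The octamer ATGCAAAT, known from H2b promoters, was in 14 of 58, against 1.60%, with 7 H2a and 7 H2b windows. AAACACA, known from H1 promoters as the AC box, was in 8 of 58, among them 4 of 5 H1 windows, against 6.25%. Windows of divergent pairs overlap, so they are not independent, and a match is only a description.

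Printed below are the 150 bases upstream of Hist1h2ap (chr13:21833508-21833657, minus strand), the gene that leads run B, of Hist1h2ae (chr13:23571221-23571370, minus), which leads the other H2a genes, and of Hist1h1e (chr13:23622559-23622708, minus), the highest H1 gene. CCAAT in either orientation, the octamer, the AC box and TATAAA are in capitals.
Hist1h2ap: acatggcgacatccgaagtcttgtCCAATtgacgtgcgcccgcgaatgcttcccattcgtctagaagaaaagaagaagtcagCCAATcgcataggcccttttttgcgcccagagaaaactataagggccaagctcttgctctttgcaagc
Hist1h2ae: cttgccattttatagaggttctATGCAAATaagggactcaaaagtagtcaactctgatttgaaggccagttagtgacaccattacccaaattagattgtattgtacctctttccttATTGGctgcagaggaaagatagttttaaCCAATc
Hist1h1e: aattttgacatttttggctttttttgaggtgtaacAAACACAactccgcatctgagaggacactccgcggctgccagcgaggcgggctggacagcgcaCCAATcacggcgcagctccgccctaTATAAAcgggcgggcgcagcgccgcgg

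Hist1h2ap and Hist1h2ae share the CCAAT box and differ in the octamer, which is in the printed stretch of Hist1h2ae alone. Hist1h2ae faces the H2b gene Hist1h2bg across 175 bases. In all, 14 pairs of members had diverging start sites within 500 bases, each an H2a with an H2b gene. In 12 of the 14 the gene on the plus strand was found in a larger share of the cells that had its partner than of those that did not. Hist1h2bg was in 97 of 222 cells with Hist1h2ae (43.7%) and in 66 of 392 without it (16.8%). Hist1h2bj was in 45.9% of cells with Hist1h2ag and 12.9% of cells without it. Hist1h2br was in 19.3% of cells with Hist1h2ap and 9.41% without it, at a mean of 1.37 TPM beside 2006 TPM for its partner. The exceptions were Hist1h2bq with Hist1h2ao and Hist1h2ba with Hist1h2aa, each with few cells. Cells are pooled over gates here and share depth, so these shares do not separate pairing from more mRNA per cell. In mean level 6 of the 14 pairs were within 2-fold, such as Hist1h2an and Hist1h2bp at 6.62 and 6.23 TPM, and 8 were further apart.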

How the data were processed

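The deposited table gives TPM per gene and cell for 614 cells. Per the submitters' processing notes, the authors estimated TPM using RSEM 1.2.19 and the GRCm38 build. Which aligner and gene models they used is not given in the sources used here. Column totals were 997617 to 1000000 TPM, 15695 of 43280 symbols were at 0 in all cells, and columns without a sample numbered 0. Read depth is unknown, so no counting limit per gene can be given.

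Groups are the sort gates of the labels; runs are stretches of library numbers, with 1 unbroken stretch divided every 96 numbers into runs D, E and F and the 129 numbers of run B left whole. Levels are means over cells of log2(TPM + 1). Cells whose cDNA was poor were dropped before sequencing, per the labels' protocols, and no doublet caller was run. Genes, lists and comparisons were chosen with earlier results of these data known. Named genes are the 3 highest members of each class, the 3 largest differences in each direction among members found in 20% or more of the higher side's cells, the 10 genes most like the total, and the extremes of the other lists. Mouse gene models are GENCODE M21, on the same GRCm38 assembly, and all 65 members were found there by symbol; promoters are from RefSeq. Calculations ran in Python 3.11.15 (pandas 2.3.3, numpy 2.4.6, scipy 1.17.1, with plots by matplotlib 3.10.9). The difference step was checked on the observed GMP cells, with changes of known size multiplied into part of them. That check covers the arithmetic only. Alternatives changed the pseudocount, the mean, the members, the cells, the extent of run B, the detection limit and the scaling.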

Additional observations from a re-analysis of the deposited data

How the results depend on the processing

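No paired analysis was possible because each gate is 1 sample and replicate numbers only name cells. Of 133 recomputed total levels, 131 moved by less than the SD over cells; leaving out Hist1h2ap gave 9.42 in GMP and 9.66 in pre-pro-B, and -0.34 for cMoP minus GMP. Of 115 recomputed total differences, 114 moved by less than that SD. The SD was larger than most of the differences, so this count does not show that they are stable. The total of pDC minus CDP went from -1.51 to -0.22 with log2 of the mean TPM. That of pre-pro-B minus CLP went from 1.13 to 0.33 without Hist1h2ap. With log2 of the mean TPM the total of SiglecH+Ly6C- minus SiglecH+Ly6C+ pre-DC changed sign to 0.07, and Hist1h4d in pDC minus CDP to 0.32. Of 365 recomputed values of the 32 named differences past the limit, 364 kept their sign and 332 stayed at 1 or more in size.

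Counts of histone genes past the limit depend on the pseudocount and on the kind of mean, and 197 recomputed counts were within 1.5 times and 53 were not. They are given here as higher and lower, first with a pseudocount of 0.1, then of 10, then as log2 of the mean TPM, where they moved by more than that. CLP minus GMP had 2 and 15, 0 and 1, and 14 higher. Pre-pro-B minus CLP had 18 higher, 4 higher, and 21 and 9. Pre-pro-B minus GMP had 7 and 5, 0 and 1, and 21 and 7. In pDC minus CDP there were 1 higher, 0 lower, and 11 and 17. SiglecH+Ly6C- minus SiglecH+Ly6C+ had 1 higher, 0 lower, and 11 and 8. SiglecH+Ly6C- minus SiglecH-Ly6C- had 3 and 4, 0 and 0, and 9 and 24. SiglecH+Ly6C- in run E minus run F had 2 and 4 at 0.1, and 11 and 15. In pDC minus CLP there were 3 higher, 2 lower, and 6 and 29. For cMoP minus GMP there were 8 higher, 1 and 4, and 13 and 25. LMPP minus GMP had 5 lower at 10, and 5 and 31 with the mean. Size factors by the median of ratios gave 1 higher in pDC minus CDP and in pDC minus CLP. With all cells of both gates, 1 was higher in SiglecH+Ly6C- minus SiglecH+Ly6C+ and 0 in SiglecH+Ly6C- minus SiglecH-Ly6C-. Leaving out the 3 cells with 10000 TPM or more of erythroid genes, chosen after seeing the data, gave 2 higher in CLP minus GMP and 1 lower in pre-pro-B minus GMP. With run B limited to its first 96 numbers, also chosen after seeing the data, 2 were higher in CLP minus GMP and 2 in pre-pro-B minus GMP. Shares of all genes past the limit were not recomputed at these settings. Whether the histone counts moved more than those of genes in general thus cannot be told. The cause of these changes was not tested.

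Of 240 recomputed Spearman values 5 moved. Without Hist1h2ap the correlation with S phase genes was -0.046 in CLP and -0.16 in pre-pro-B, and that with G2/M genes 0.37 in GMP. With size factors the S phase value was -0.12 in cMoP, and without the 5% of cells with most genes the G2/M value in pDC was 0.096. Shares of cells at 100 TPM or more of histones in place of 1000 were 70.8% in LMPP, 100% in GMP and pre-pro-B, 95.8% in CLP, 75.9% in CDP, 97.0% in cMoP, 66.7% in SiglecH+Ly6C+, 66.2% in SiglecH-Ly6C+, 68.6% in SiglecH-Ly6C-, 55.7% in SiglecH+Ly6C- pre-DC, 55.6% in pDC and 43.8% in blood pre-DC. At 10000 TPM they were 33.3% in GMP, 18.8% in CLP, 46.7% in pre-pro-B and 0% in LMPP, CDP, cMoP, pDC and the marrow pre-DC gates. Limits are 1 sample per gate, unknown depth, gates tied to runs, near-identical genes and poly(A) priming of mRNAs that typically lack a tail.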
